A study of Bos taurus with 12 samples.

Results

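The regions described here are the methylated DNA peaks at the centromere-side ends of the cattle autosomes. A peak belonged to them when its start lay at or below 3000000 on one of chromosomes 1 to 29 (bosTau8), and peaks starting in chr14:1-1000000 were left out. By this rule 12992 of the 254474 peaks in the 12 single-library lists were members, and 16457 of the 371966 peaks in the 6 merged lists. The rule used position only, but the stretch of chromosome 14 that it leaves out was dense, with 89 to 200 peaks per library in 1 Mb. The members filled a window of 86 Mb, which was 3.42% of the autosomal length considered, and were set against 232005 single-library peaks on the same chromosomes farther in, over 2425 Mb.

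The peaks came from MBD-seq of longissimus muscle, in which sheared DNA is captured by a protein that binds methylated CpGs. The animals were Angus steers of similar age on one diet, 2 with tender and 2 with tough beef. They were drawn at random from the animals at both ends of a shear force ranking, and no treatment was given. Each capture was eluted serially in 3 steps, giving high (H), medium (M) and low (L) methylated DNA of tender (TE) and tough (TO) beef. These codes together name 6 conditions (HTE to LTO) with 2 animals as replicates, written HTE_1 and so on, and each condition also had a list called on its merged replicates. The labels name the muscle longissimus dorsi and the paper names it longissimus lumborum, and peak positions hold no marker by which the tissue could be checked. The DNA came from whole muscle, so the share of cells methylated at a site and the methylation per cell cannot be told apart.

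All autosomes of cattle are acrocentric: the centromere lies at one end, and assembly coordinates run from that end towards the distal telomere. Bovine centromeres carry long arrays of satellite DNA that is rich in CpG and heavily methylated in somatic tissues, and stretches of such repeats and of segmental duplications can be found near the start of assembled chromosomes. A methyl-CpG binding protein holds DNA more tightly the more methylated CpGs a fragment carries, which is why stepwise elution sorts fragments by methylated CpG density. Reads from repeats often map to several places, and the authors kept uniquely mapped reads.

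Between 3677473 and 7981292 tags per library were left for peak calling after duplicates were removed. The high methylated libraries were the shallowest, with 4192281 ± 583701 tags (SD, n = 4), against 6364034 ± 448928 in the medium and 7032398 ± 920713 in the low methylated libraries. LTE_1 stood apart among the low methylated libraries, with 9555 autosomal peaks against 16881 in LTE_2, 27783 in LTO_1 and 28599 in LTO_2. Densities are therefore compared first inside each library, as the ratio of the window to the rest, and then with lists cut to equal length. The part that depth had in which peaks were called was not tested beyond that.

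Centromere-side ends held more peaks per Mb than the chromosomes farther in, in every library. The high methylated DNA had 7.07 and 8.09 peaks per Mb of window in HTE and 6.74 and 7.79 in HTO. The medium methylated DNA had 19.8 and 20.8 in MTE and 14.9 and 15.2 in MTO. The low methylated DNA had 6.71 and 10.9 in LTE and 16.1 and 17 in LTO. Farther in, the same libraries had 3.92 to 4.95 peaks per Mb in the high, 9.29 to 13.9 in the medium and 3.64 to 11.1 in the low methylated DNA, so that the window was denser in 12 of 12 libraries, by 1.49-fold (LTO_1) to 1.84-fold (LTE_1). On the log2 scale the density ratio averaged 0.75 ± 0.033 (SD, n = 4) for high, 0.63 ± 0.047 for medium and 0.70 ± 0.14 for low methylated DNA, the last being 0.64 without LTE_1. A two-sided exact sign-flip permutation test over the 4 libraries of a level gave p = 0.12 at each level, the smallest value that 4 libraries allow.

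The size of this difference depended on where the window ended and on the other end of the chromosome. With a limit of 1 Mb the log2 ratio was 1.14 for high, 0.81 for medium and 1.05 for low methylated DNA, and with a limit of 5 Mb it was 0.41, 0.44 and 0.47. The distal ends were denser still. The last 3 Mb of each chromosome had 17.6 to 26.9 peaks per Mb in the high, 45.2 to 67.1 in the medium and 8.22 to 32.9 in the low methylated libraries. Against the stretch between both ends, the distal density was 5.82 ± 0.55-fold for high, 5.54 ± 0.13-fold for medium and 2.57 ± 0.42-fold for low methylated DNA, whereas the centromere-side density was 1.97 ± 0.024-fold, 1.80 ± 0.061-fold and 1.72 ± 0.16-fold. The centromere side was below the distal end in 12 of 12 libraries, with the gap widest in HTE_2 and the other high and medium libraries and narrowest in LTE_1, where the densities were 6.71 and 8.22 peaks per Mb. The distal ends were compared after the data had been seen.

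**Figure D1:**
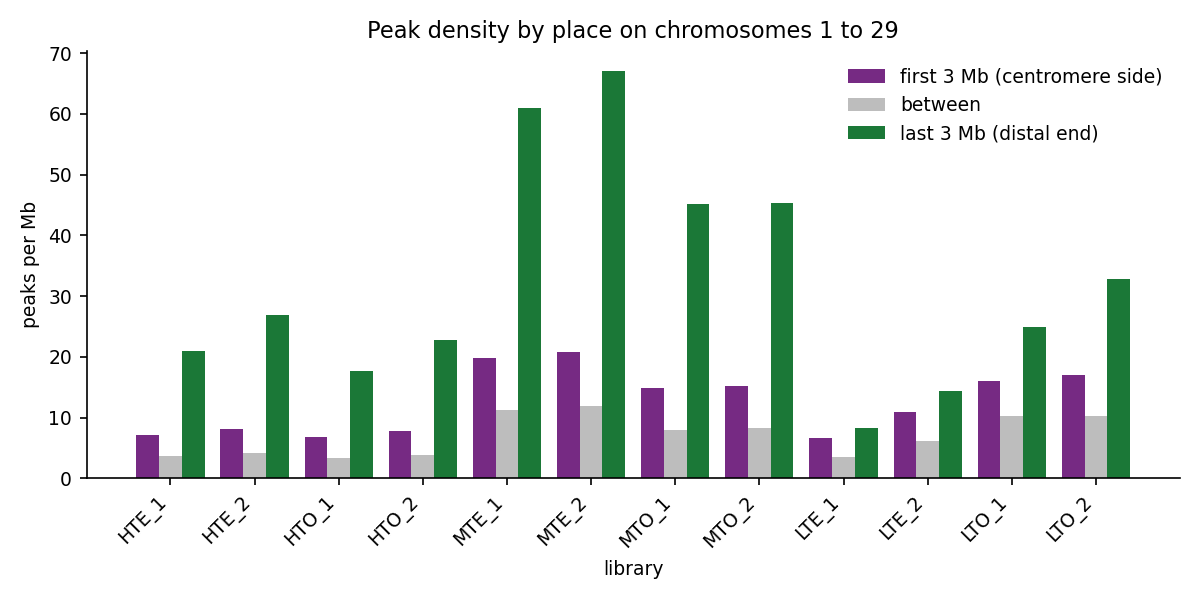
Peaks per Mb (vertical axis) of chromosomes 1 to 29 for each of the 12 libraries, in the first 3 Mb without chr14:1-1000000, in the last 3 Mb, and between them. Each bar is 1 library. The first 3 Mb stand above the stretch between in all 12 libraries and below the last 3 Mb in all 12.

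Within the window the peaks crowded towards the chromosome start. In steps of 0.5 Mb, and relative to the density beyond 10 Mb of the same library, the first 0.5 Mb reached 3.31 ± 0.19-fold for high, 2.36 ± 0.26-fold for medium and 3.01 ± 0.86-fold for low methylated DNA (SD, n = 4). The low level spread most, with LTE_1 at 4.18-fold. The next 5 steps, up to 3 Mb, lay between 1.06-fold and 1.73-fold for high, 1.17-fold and 1.64-fold for medium and 1.18-fold and 1.52-fold for low methylated DNA. The step just past the limit, 3.0 to 3.5 Mb, fell to 0.56 ± 0.054-fold for high, 0.89 ± 0.044-fold for medium and 0.79 ± 0.15-fold for low methylated DNA. Beyond it the density did not stay low at once, and 5.0 to 5.5 Mb rose again to 1.35-fold, 1.38-fold and 1.56-fold.

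**Figure D2:**
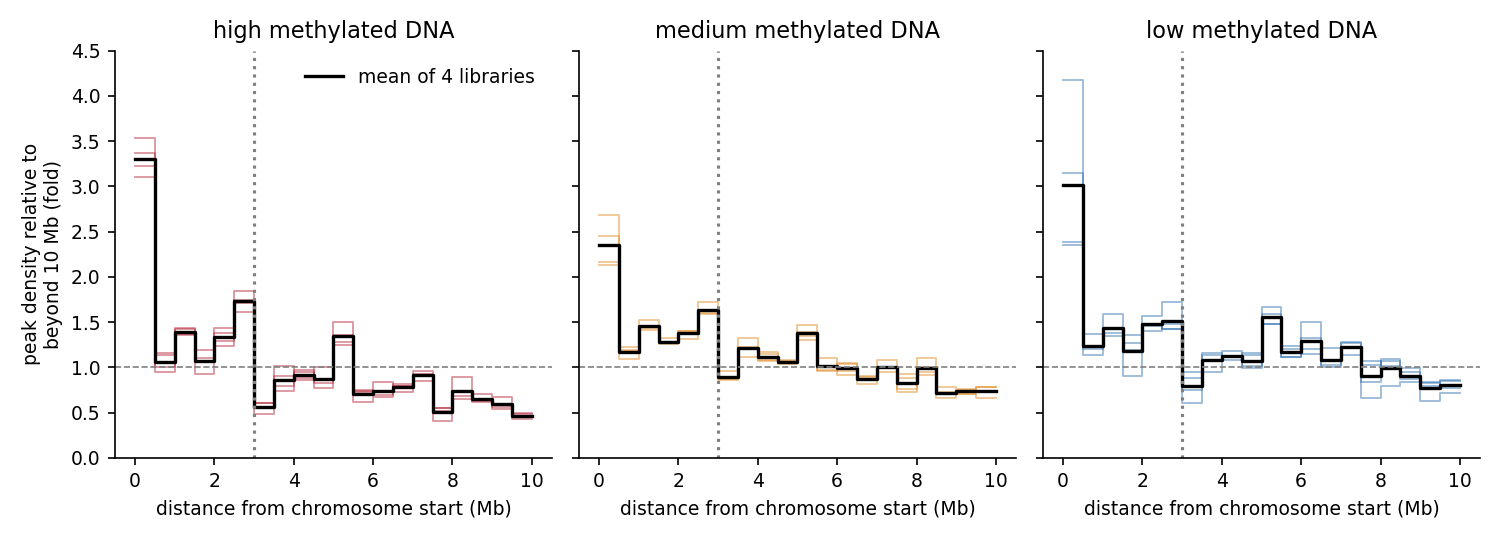
Peak density in steps of 0.5 Mb from the chromosome start (horizontal axis, Mb), as the fold of the density beyond 10 Mb in the same library (vertical axis). Thin lines are single libraries, the black line is the mean of the 4 libraries of a level, the dotted line marks the limit of 3 Mb and the dashed line marks equal density. The first step is the highest in each panel.

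Much of the crowding lay in the first 0.1 Mb. It held 46.8 to 52.5 peaks per Mb in the high, 68.9 to 83.2 in the medium and 51.1 to 74.3 in the low methylated libraries, which was 12.2% (MTE_1) to 24.8% (LTE_1) of all window peaks of a library. Of the 28 chromosomes whose first 0.1 Mb belonged to the window, each library had a peak there on 21 to 27, and 19 chromosomes had one in every library. The peaks were spread unevenly over them, and the starts of chromosomes 19, 9 and 4, described below, were the fullest. These held 39, 17 and 20 of the 135 peaks of the first 0.1 Mb in HTE_1. In MTE_1 they held 36, 26 and 25 of 208, and in LTE_1 27, 17 and 14 of 143. With the first 0.5 Mb taken away, the rest of the window was still denser than the chromosomes farther in, by 1.31-fold to 1.41-fold, in 12 of 12 libraries. The 4 libraries of a level then lay close together, with means of 1.35 ± 0.034-fold, 1.39 ± 0.016-fold and 1.36 ± 0.031-fold at the high, medium and low level.

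A few short blocks carried a large part of the peaks. Of 860 steps of 0.1 Mb in the window, 738 had a peak in some library, and the 10 fullest, ranked by their sum over the 12 libraries, held 2450 of 12992 peaks (18.9%). These were chosen by their counts, so their counts are a description. Their share of a library's window peaks was 26.9% ± 2.13 for high, 15.7% ± 2.57 for medium and 20.6% ± 5.69 for low methylated DNA (SD, n = 4). Without them the window was 1.2-fold (HTE_1) to 1.33-fold (MTE_1) as dense as the chromosomes farther in. No full steps were taken out farther in, so the choice itself lowers this ratio. Chromosomes 3, 4, 9, 19, 22 and 28 are named here after their values were seen, because they hold such blocks.

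The fullest block was chr19:110-73828, at the very start of the chromosome. It held 39, 41, 41 and 37 peaks in HTE_1, HTE_2, HTO_1 and HTO_2, 36, 46, 56 and 47 in MTE_1, MTE_2, MTO_1 and MTO_2, and 27, 33, 44 and 39 in LTE_1, LTE_2, LTO_1 and LTO_2. The levels overlapped in these numbers, and LTE_1 was the lowest. Every peak of the block had a pileup, the number of tags stacked at its summit, of 100 or more in the high and medium methylated libraries and of 59 or more in the low. Its fold enrichment over the local background was low all the same, with a median of 2.09 to 2.57 over the 12 libraries, where the median over the whole window of a library was 5.74 to 6.73. Summits followed each other at a median distance of 1085 to 2434 bp.

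The block chr22:2865864-2892896, near the inner edge of the window, was alike in form. It had 22 to 26 peaks in the high, 28 to 31 in the medium and 20 to 31 in the low methylated libraries. Its median pileup was 206 to 238, 164 to 232 and 89 to 152 tags, and its median fold enrichment was 1.94 to 2.32. A block of the same length, chr3:1019021-1046046, had 15 to 17, 19 to 23 and 16 to 20 peaks with a median pileup of 142 to 261 tags and a median fold enrichment of 1.80 to 2.19. In chr28:2640673-2670201 there were 12 to 15 peaks per library, and these were wide, with a median width of 424 to 583 bp.

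The blocks were not all of this kind. On chr21:2003302-2099613 the high methylated libraries had 8 to 11 peaks, below the 21 to 28 of the medium and the 21 to 31 of the low methylated libraries, with no overlap. Its median pileup was 23 to 50 tags and its median fold enrichment was 5.49 to 10.2, so these peaks stood out against their surroundings more than those of chromosome 19. In the neighbouring chr21:2105123-2138176, by contrast, the high methylated libraries had 16 to 20 peaks and the low 11 to 19, with a median fold enrichment of 2.04 to 2.62. The first 0.1 Mb of chromosomes 9 and 4 lay in between, with a median fold enrichment of 3.10 to 3.61 and of 3.72 to 4.80, and 17 to 30 and 14 to 26 peaks.

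Peaks of the window were slightly wider than those farther in. The median width in the window was 271, 293, 295 and 286 bp in HTE_1, HTE_2, HTO_1 and HTO_2, against 262, 281, 278 and 280 bp farther in. It was 217, 210, 242 and 250 bp against 214, 200, 229 and 243 bp in MTE_1, MTE_2, MTO_1 and MTO_2, and 232, 205, 217 and 191 bp against 209, 182, 200 and 180 bp in LTE_1, LTE_2, LTO_1 and LTO_2. The window was above in 12 of 12 libraries, by 1.01-fold to 1.13-fold, and the log2 ratio was 0.057 ± 0.022, 0.053 ± 0.027 and 0.13 ± 0.038 (SD, n = 4) at the high, medium and low level. The share of peaks of 1 kb or more was also higher in the window in 12 of 12 libraries, with 3.10% ± 0.27 against 2.72% ± 0.16 for high, 1.55% ± 0.27 against 1.07% ± 0.32 for medium and 2.41% ± 0.78 against 1.48% ± 0.58 for low methylated DNA. Peak width also depends on the fragment length that MACS2 estimated, 179 to 203 bp in the high and 146 to 175 bp in the other libraries, so widths are compared within a library. With the first 0.5 Mb left out, the log2 ratio of width fell to 0.023, 0.0092 and 0.0063.

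The median pileup of the window was above that farther in in 11 libraries and equal in MTO_2. At the high level this direction was not stable. The mean log2 ratio of 0.20 became -0.37 without the first 0.5 Mb and -0.18 with a limit of 5 Mb, with every high methylated library negative. With the last 3 Mb left out it became -0.67, from -1.36 in HTE_1 and -1.26 in HTO_1 beside -0.059 in HTE_2 and 0 in HTO_2. With lists of equal length it became -0.056, which came from HTE_1 alone (-0.76). HTE_2, HTO_1 and HTO_2 then stayed positive (0.26, 0.18 and 0.10). With all peaks the median pileup was 25 against 23 tags in HTE_1, 24 against 20 in HTE_2, 25 against 21 in HTO_1 and 20 against 18 in HTO_2. The medium and low methylated libraries had 11 to 14 against 10 to 13 tags, leaving LTE_1 aside. LTE_1 had 38 against 14 tags, a 2.71-fold difference, where the other 11 libraries ranged from equal to 1.2-fold. In LTE_1 the window's pileups spread widely, from a lower quartile of 10 to an upper quartile of 82 tags, and the upper quartile farther in was 87 tags. The peaks of the first 0.5 Mb, described next, made up 36.9% of its window, the highest share of any library.

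The tallest peaks went the other way. Peaks with a pileup of 100 tags or more made up 26.8% ± 2.20 of the window against 36.1% ± 3.50 farther in at the high level, 15.6% ± 3.01 against 18.3% ± 3.73 at the medium and 14.3% ± 1.41 against 17.5% ± 1.77 at the low level, and the window was lower in 12 of 12 libraries. The mean pileup of the window was below that farther in at the high level, with a log2 ratio of -0.22. The tallest peak of a library reached 1.88 to 2.00 times its fragment length in tags, which is the most that 1 tag per position and strand allows, so differences among the tallest peaks are compressed. Median fold enrichment was higher in the window in 4 libraries and lower in 8, between 0.957 and 1.06 times that farther in.

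The first 0.5 Mb and the rest of the window differed strongly in pileup. The median in the first 0.5 Mb was 52.5 to 65 tags in the high, 33 to 54 in the medium and 47 to 60 in the low methylated libraries. In the rest of the window it was 14 to 18, 12 to 13 and 10 to 17 tags, so the first 0.5 Mb was above it in 12 of 12 libraries, by 2.58-fold to 6-fold. The first 0.5 Mb includes the blocks at the start of chromosomes 19, 9 and 4. Their median pileups were 78 to 179.5, 51 to 97.5 and 48 to 78 tags over the 12 libraries. The part of these blocks in the contrast was not tested. The rest of the window was below the peaks farther in in 5 libraries, the 4 high methylated ones and MTO_2, equal in 5 and above in 2. The first 0.5 Mb was also the wider in 12 of 12 libraries, with a median width of 225 to 319 bp against 181 to 286 bp. Peaks with a fold enrichment under 3 were 17.3% to 25.3% of the first 0.5 Mb, which holds the block of chromosome 19 but not those of chromosomes 22 and 3. Over the whole window they were 8.85% to 19.3%, below the 11.1% to 26.6% farther in in 12 of 12 libraries.

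**Figure D3:**
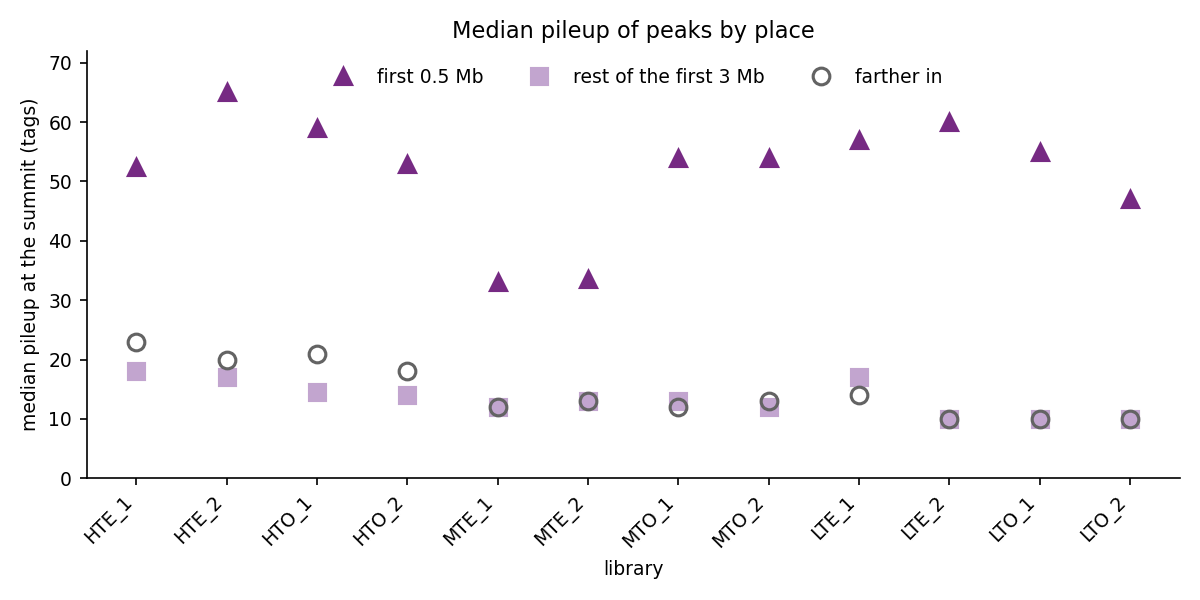
Median pileup in tags at the summit (vertical axis) of the peaks of each library in the first 0.5 Mb (triangles), in the rest of the first 3 Mb (squares) and farther in (open circles). The first 0.5 Mb stands above both others in all 12 libraries, between 33 and 65 tags.

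The 3 methylation levels were then compared in these ratios by two-sided exact permutation tests of 4 libraries against 4, over 9 comparisons adjusted after Benjamini and Hochberg. The density ratio was higher in the high than in the medium methylated DNA by 0.12 on the log2 scale. It was higher in each of the 4 pairs with the same replicate number, taken as one animal although no label says so. The exact permutation p of 0.029 became 0.129 after adjustment. High and low differed by 0.045 (adjusted p = 0.675 by the exact permutation test), or by 0.11 without LTE_1 (0.257), and medium and low by -0.070 (adjusted p = 0.600 by the exact permutation test). The width ratio was lower in the medium than in the low methylated DNA by 0.078 and lower in the high than in the low by 0.074, with adjusted exact permutation p of 0.129 and 0.171. No adjusted p for pileup was under 0.257. None of the 9 comparisons thus passed 0.05, and 2 of them did before adjustment.

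This outcome turned with the number of peaks and with the distal ends. When every library was cut to its 9555 most significant peaks, the number in LTE_1, the low methylated DNA had the highest density ratio and the high the lowest (0.74, 0.82 and 0.93 on the log2 scale at the high, medium and low level). High minus medium was then -0.085, high minus low -0.19 and medium minus low -0.10, each with an adjusted exact permutation p of 0.0367. When the last 3 Mb were left out of the peaks farther in, the ratios were 0.98, 0.85 and 0.78, and high was above medium by 0.13 and above low by 0.20, each with an adjusted exact permutation p of 0.0429. These tests take the libraries as unpaired, and with the levels of one animal as pairs no p could go below 0.12, so none of these calls would hold. Without the first 0.5 Mb the levels differed by -0.046, -0.018 and 0.027, with adjusted exact permutation p from 0.257 to 0.624. An order of the levels in density was thus not fixed by these lists.

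Single chromosomes differed far more than the levels did. The window was denser than the chromosome farther in on 15 of 29 chromosomes in every library, on 4 in none, and on 10 in some. Per library, 18 (HTO_1 and MTE_1) to 23 (LTE_2 and LTO_1) chromosomes were denser. Chromosomes 14, 25, 21 and 24 had the most peaks per Mb of window, averaged over the 12 libraries, and together held 28.9% of all window peaks. They made up 2, 3, 3 and 3 Mb of the 86 Mb. They were ranked by this same density, so their share is a description.

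Chromosome 14, of which 2 Mb belonged to the window, had 33.9 peaks per Mb on average. It held 45, 52, 38 and 43 peaks in HTE_1, HTE_2, HTO_1 and HTO_2, 108, 114, 89 and 90 in MTE_1, MTE_2, MTO_1 and MTO_2, and 37, 55, 64 and 79 in LTE_1, LTE_2, LTO_1 and LTO_2. Against the rest of the chromosome this was 7.79 ± 0.78-fold (SD, n = 4) for high, 5.65 ± 0.82-fold for medium and 4.81 ± 1.43-fold for low methylated DNA, the widest contrast of any chromosome. The 1 Mb left out in front of it held 89 to 99 peaks in each high methylated library, more than the whole window of any chromosome there.

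Chromosome 25 came second with 27.8 peaks per Mb but was dense farther in as well, so its contrast was small. It was 1.90 ± 0.20-fold for high, 2.1 ± 0.10-fold for medium and 1.22 ± 0.15-fold for low methylated DNA, and the low methylated libraries lay below all others. In number, MTE_1 and MTE_2 had 164 and 188 peaks there, MTO_1 and MTO_2 121 and 120, and LTE_1 only 15. Chromosome 21, with the blocks described above, was 4.02 ± 0.47-fold, 2.86 ± 0.30-fold and 4.16 ± 1.48-fold as dense in its window. Chromosome 24 was 3.34 ± 0.28-fold, 3.22 ± 0.28-fold and 2.69 ± 0.64-fold as dense, with the levels overlapping.

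Chromosomes 6, 23, 5 and 12 had the fewest, with 3.83, 4.61, 4.81 and 5.06 peaks per Mb of window on average. On chromosome 6 the window held 4, 6, 5 and 6 peaks in the high, 19, 19, 9 and 12 in the medium and 2, 7, 28 and 21 in the low methylated libraries, in the order tender and then tough. It was 0.18 to 0.95 times as dense as the rest of chromosome 6. Chromosome 23 was 0.41 ± 0.13-fold, 0.39 ± 0.038-fold and 0.62 ± 0.059-fold as dense at the high, medium and low level, and chromosome 5 was 0.67 ± 0.077-fold, 0.60 ± 0.086-fold and 0.78 ± 0.19-fold. Chromosome 12 was below in 11 of 12 libraries, LTE_2 with 1.30-fold being the exception. Chromosome 27, named after its values were seen, was the other chromosome below in all 12, at 0.40 to 0.78 times its density farther in.

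**Figure D4:**
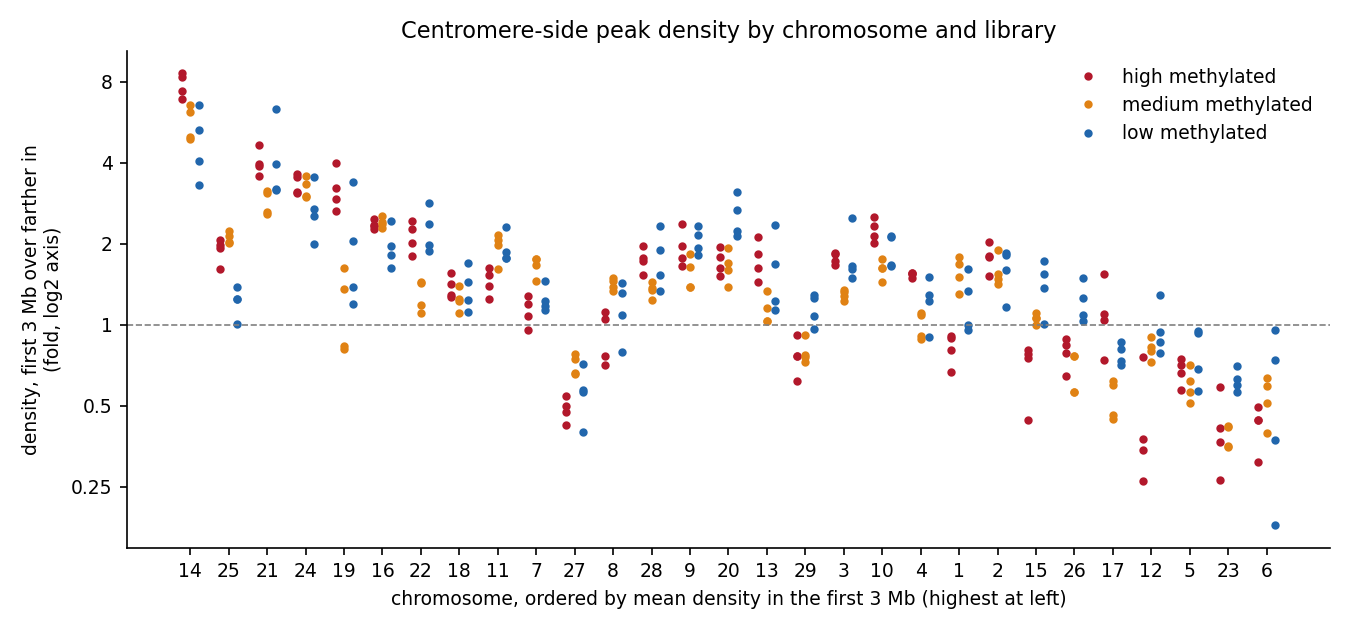
Peak density of the first 3 Mb relative to the rest of the same chromosome (vertical axis, fold on a log2 scale) for chromosomes 1 to 29, ordered from the densest to the sparsest window. Each point is 1 library, coloured by methylation level, and the dashed line marks equal density. Chromosome 14 lies between 3.30 and 8.58, and chromosomes 27, 5, 23 and 6 lie below 1 in all 12 libraries.

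Overlapping peaks of the 12 libraries, with 1 bp or more in common, were joined into regions, which gave 3486 regions in the window and 70724 farther in. Regions were 1.39 times as frequent per Mb in the window. A peak in all 12 libraries was found in 220 window regions, which was 6.31% (Wilson 95% interval 5.55 to 7.17%), against 2901 regions or 4.10% (3.96 to 4.25%) farther in, and 4.26% of all 74459 autosomal regions. The intervals cover counting error only and take regions as independent, which neighbouring regions are not. Per Mb these regions were 2.14 times as frequent in the window. Of the 220, 104 lay in the first 0.5 Mb. Chromosome 19 held 28 of them, chromosome 21 held 22 and chromosome 22 held 20, whereas chromosomes 1 and 6 held none.

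Window regions were shared among levels in proportions that differed moderately from those farther in. A peak at all 3 levels was present in 633 regions (18.2%, interval 16.9 to 19.5%) against 13.6% farther in. Only low methylated libraries had a peak in 946 regions (27.1%, 25.7 to 28.6%) against 32.0%, and only high methylated libraries in 43 (1.23%, 0.917 to 1.66%) against 1.07%. Regions with peaks in medium and low but not high methylated DNA made up 21% against 20.1%, and those in high and medium but not low 6.94% against 7.23%. A peak in a single library was the most common case in both places, with 40.1% in the window and 45.4% farther in.

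Among the window regions with a peak in all 12 libraries, the 6 whose lowest fold enrichment was highest were 400 to 1006 bp wide, where the median of the 220 was 531.5 bp. First was chr7:461837-462485, 649 bp wide, with a fold enrichment of 29.1 to 32.0 in the high, 29.8 to 34.0 in the medium and 25.2 to 28.3 in the low methylated libraries. Its pileup was 101, 128, 83 and 102 tags in HTE_1, HTE_2, HTO_1 and HTO_2, 132, 128, 123 and 142 in MTE_1, MTE_2, MTO_1 and MTO_2, and 91, 101, 114 and 107 in LTE_1, LTE_2, LTO_1 and LTO_2. Per 1000000 tags left, called the normalised pileup from here on, this was 24.7 ± 2.62, 20.7 ± 2.20 and 14.7 ± 0.75 (SD, n = 4), with no overlap between the low and the other levels. Pileup also depends on the estimated fragment length, 179 to 203 bp in the high and 146 to 175 bp in the other libraries. The normalised pileup is not corrected for it, here or below. Its part in differences between levels was not tested. Next came chr22:1802444-1802943 with a fold enrichment of 23.5 to 29.4 over the 12 libraries and chr28:2251026-2251425 with 21.7 to 28.8.

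The other regions named by this rule were chr7:82184-82673 with a fold enrichment of 16.4 to 27.5, chr11:660121-661126 with 13.9 to 17.8 and chr4:341636-342079 with 13.5 to 19.1. They differed in how the pileup was spread over the levels. At chr11:660121-661126 the normalised pileup was 53.9 ± 6.26 in the high, 33.7 ± 6.17 in the medium and 17.6 ± 2.02 in the low methylated DNA. Its raw pileups were 202 to 246, 185 to 236 and 87 to 156 tags, so high and medium overlapped before division by tags. At chr7:82184-82673 the normalised pileup was 12.6 ± 2.75, 13.9 ± 0.74 and 11.2 ± 1.03, and the levels overlapped. These regions were picked for their values, so no test was made on them.

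The region with the highest mean normalised pileup was chr28:1893662-1895082, 1421 bp wide. It reached 71.1, 71.2, 97.6 and 97.5 in HTE_1, HTE_2, HTO_1 and HTO_2, 40.7, 37.2, 50.4 and 54.6 in MTE_1, MTE_2, MTO_1 and MTO_2, and 33.4, 28.1, 30.6 and 34.2 in LTE_1, LTE_2, LTO_1 and LTO_2. The raw pileups were 322 to 363 tags for high, 256 to 326 for medium and 193 to 247 for low methylated DNA, so that high and medium overlapped before division by tags. Pileups of this height are near the limit of 2 tags per base of fragment length in the high and medium libraries, and the normalised values therefore cannot be compared between libraries here.

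The widest region with a peak in all 4 libraries of a level was chr27:1368551-1370950 at the high level, 2400 bp wide. Its normalised pileup was 50.1 ± 6.94 for high, 31.1 ± 7.56 for medium and 16.8 ± 2.69 for low methylated DNA (SD, n = 4), while its fold enrichment was only 4.70 to 5.93. Its raw pileups were 191 to 225, 162 to 228 and 91 to 161 tags, so high and medium overlapped before division by tags. At the medium and low level the widest was one place on chromosome 17, chr17:292434-294265 (1832 bp) and chr17:292433-294249 (1817 bp). Here the levels overlapped, with a normalised pileup of 33.8 ± 2.84, 32.5 ± 1.78 and 33.3 ± 4.75. Raw pileups here were 121 to 157 tags for high, below the 187 to 231 for medium and the 216 to 239 for low methylated DNA. What lies under these regions in sequence or genes was not analysed here.

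At the limit of 3 Mb, the last region inside was chr16:2999860-3000006, with a peak in 1 library, and the first outside was chr15:3000382-3000564, with a peak in 2.

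Tender and tough beef were compared within each level, with 2 animals each. The density of the window itself followed the density of the whole list. At the high level it was 7.58 ± 0.72 peaks per Mb (SD, n = 2) for tender and 7.27 ± 0.74 for tough beef, and the groups overlapped. At the medium level it was 20.3 ± 0.67 against 15.1 ± 0.22, and for low methylated DNA 8.78 ± 2.94 against 16.5 ± 0.67, with no overlap at either. The densities farther in moved alike, with 13.5 ± 0.60 against 9.46 ± 0.23 at the medium and 5.08 ± 2.02 against 10.96 ± 0.22 at the low level.

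In the ratio of the window to the rest, the log2 values of tender and tough beef lay apart at all 3 levels. They were 0.73 and 0.71 in HTE against 0.78 and 0.77 in HTO, a tough minus tender difference of 0.055. They were 0.60 and 0.58 in MTE against 0.68 and 0.66 in MTO, a difference of 0.079. At the low level the direction was the opposite, with 0.88 and 0.74 in LTE against 0.57 and 0.61 in LTO, a difference of -0.22, or -0.15 without LTE_1. The two-sided exact permutation p was 0.333 in each case, the smallest that 2 against 2 allows, and averaged over the 3 levels of an animal the groups overlapped (0.71 ± 0.043 against 0.68 ± 0.0012). On average the group with fewer peaks had the higher ratio at each level. Single libraries did not all follow this, since HTO_2 had more autosomal peaks than HTE_1 (11879 against 11057) and the higher ratio. With 9555 peaks per library the differences were 0.070, -0.012 and 0.027. HTE (0.75 and 0.66) and HTO (0.78 and 0.77) then still lay apart, and the groups overlapped at the medium and low level. The part of list length in these differences was not tested.

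Width and pileup gave less. The width ratio overlapped between tender and tough beef at the high and medium level and was lower in tough beef by 0.060 at the low level without overlap. The pileup ratio overlapped at the high and medium level. At the low level tough beef was lower by 0.71 on the log2 scale, and this rested on LTE_1, since the difference was -0.13 without it.

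At each level, regions were counted in which both libraries of one beef had a peak and neither of the other beef had one. At the high level 36 of 941 window regions (3.83%) were tender-specific in this sense, where 3.61% of all autosomal regions were, and 14 (1.49%) were tough-specific, where 1.68% were. At the medium level 216 of 2531 (8.53%) were tender-specific against 8.83% of all, and 59 (2.33%) were tough-specific against 1.81%. At the low level 18 of 2365 (0.761%) were tender-specific against 0.50%, and 213 (9.01%) were tough-specific against 9.26%. The Wilson 95% interval of the window's share held the share of all regions in each of the 6 cases, at the very edge for the tough-specific share of the medium level (1.81 to 3.0%).

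The lean towards one beef was also read with lists of equal length. With the longer lists of a level cut to the length of the shortest by significance, 22 window regions were tender-specific and 28 tough-specific at the high level (2.87% and 2.55% of all autosomal regions), 97 and 110 at the medium (4.71% and 5.40%), and 34 and 34 at the low level (2.44% and 2.88%). The shares in the window were then 2.70% and 3.44%, 4.65% and 5.28%, and 3.14% and 3.14%. The excess of tender-specific regions at the medium and of tough-specific regions at the low level was no longer there.

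**Figure D5:**
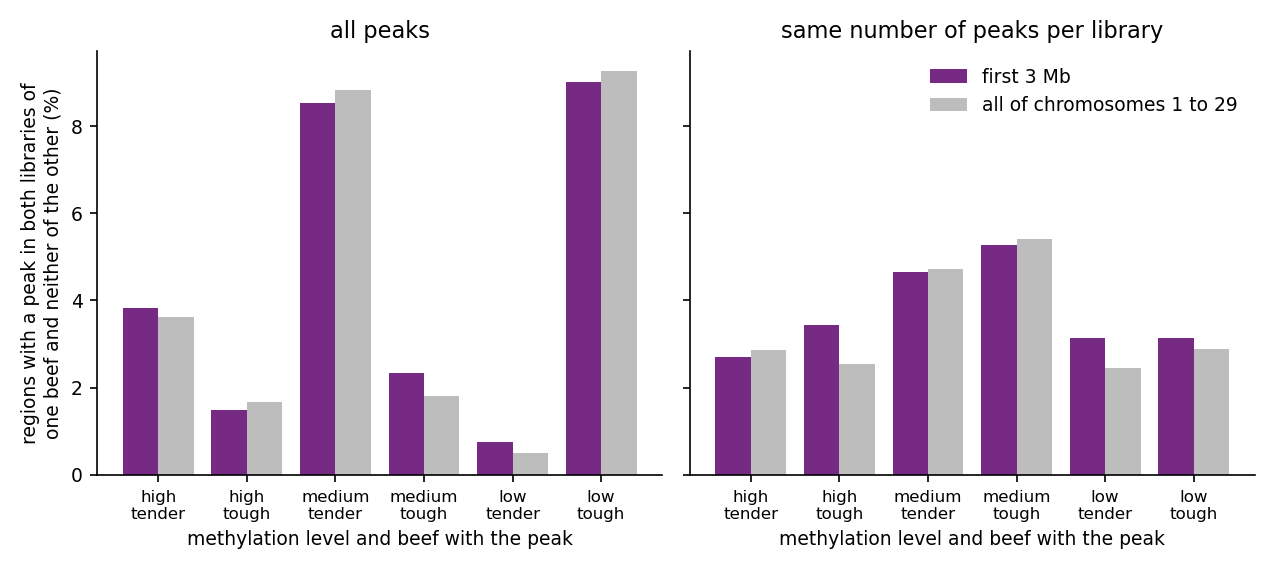
Share of regions (vertical axis, %) where both libraries of one beef had a peak and neither of the other did, for each methylation level and the beef that has the peak, in the first 3 Mb and over all of chromosomes 1 to 29. The left panel uses all peaks, in which low tough reaches 9.01% and low tender 0.761% of the window's regions, and the right panel cuts the lists of a level to equal length, in which both are 3.14%.

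The group-specific window regions with the highest lower fold enrichment were modest peaks. The tender-specific one at the high level was chr28:778037-778338, with a fold enrichment of 10.4 and 12.4 in HTE_1 and HTE_2. It also had a peak in all 4 medium methylated libraries, tough ones included, at 5.77 to 11.4. The tough-specific one at the high level was chr21:557867-558127, with 6.99 and 11.2 in HTO_1 and HTO_2 and a peak in all 4 medium methylated libraries.

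At the medium level they were chr9:1560028-1560301 in tender beef, with 9.30 and 12.4, and chr17:2848463-2848815 in tough beef, with 9.46 and 11.7. The first also had peaks in both LTO libraries, and the second in all 4 high methylated libraries. At the low level they were chr20:737704-738000 in tender beef, with 9.26 and 7.26 and no peak at any other level, and chr1:48930-49327 in tough beef, with 9.29 and 9.94 and a peak in all 4 medium methylated libraries. In 5 of these 6 regions the other beef thus had a peak at another level, chr20:737704-738000 being the exception. Pileups in them were 7 to 22 tags.

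The merged lists, called by the authors on both replicates together, gave the same direction in all 6 conditions with smaller contrasts where lists were long. HTE had 1111 window peaks and a density 1.63-fold that farther in, and HTO 928 and 1.68-fold. MTE had 3890 peaks and 1.37-fold, MTO 2727 and 1.45-fold, LTE 2923 and 1.32-fold, and LTO 4878 and 1.21-fold. The longest list thus had the smallest contrast. Median width was 1.01-fold to 1.06-fold and median pileup 1.07-fold to 1.15-fold that farther in.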

How the data were processed

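MBD-seq peak lists of 12 libraries (4 animals, 3 methylation levels) and 6 merged lists were analysed. The authors cleaned reads with SOAPnuke, aligned them with BWA (0.7.7, from the submitters' processing notes) to bosTau8 and kept uniquely mapped reads. Per the file headers, MACS2 2.1.1.20160309 (single libraries, genome size 2600000000) or 2.1.0.20150731 (merged, 2660939081) called peaks without a control at q 0.01, with a tag length of 50 bp, 1 tag per position and strand and a regional background of 10000 bp. The deposited pileup is thus the tag signal at the summit, not scaled to depth. The deposited fold enrichment is a ratio of pileup to the local background of the same library, and the deposited -log10 p and -log10 q values score it. No authors' value was recomputed. The methods and the supplementary notes tie salt concentrations to methylation levels in opposite ways, so libraries are named by level only.

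Peaks were assigned by start, and chromosome length was taken as the end of the last peak in any list. For each library, log2 ratios of window to farther in were computed for peaks per Mb, median width and median pileup in Python (version 3.11.15) using scipy 1.17.1, pandas 2.3.3 and numpy 2.4.6, and matplotlib 3.10.9 drew the figures. The code was tested on simulated lists. Levels were compared by exact permutation tests, 9 in all, adjusted after Benjamini and Hochberg, with a threshold of 0.05. Groups came from the sample titles, and no column of the tables used lacked a sample or condition (0 such columns). The same replicate number within a beef group was taken as one animal, since the levels are serial elutions of one capture. As a check, the difference between replicates 1 and 2 in the share of window peaks on each of 29 chromosomes was correlated between levels, which gave r of -0.00073, 0.44 and 0.18 in tender and 0.20, 0.48 and -0.072 in tough beef for high with medium, high with low and medium with low. These values were mixed, so the check did not settle the pairing, on which the means per animal and the replicate block rest. Chromosomes named are the 4 with the most and the 4 with the fewest peaks per Mb of window. Regions named are the 6 of highest lowest fold enrichment among those with a peak in all 12 libraries, the one of highest normalised pileup, the widest of each level and the group-specific region of highest lower fold enrichment in each direction. The members, lists and limits were chosen with earlier results of these data known. Alternatives covered the limit of the window, chr14:1-1000000, the distal 3 Mb, peak thresholds, equal list lengths, means, merged lists, medians over chromosomes and each library left out, and 2 more were added after the data had been seen (the first 0.5 Mb and the 10 fullest steps left out). Sequences and genes under the peaks were not analysed here, as no genome of this build was used.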

Additional observations from a re-analysis of the deposited data

Results flagged for a closer look

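Among the low methylated libraries, LTE_1 stood apart in the pileup ratio of window to farther in, at 1.44 on the log2 scale, where the other 3 libraries lay between 0.14 and 0.26. The gap to the next library was 0.904 of the range of the 4. In 9 such sets of 4 libraries this was the only one past Dixon's limit, and chance passes it in about 1 of 20 sets. LTE_1 also had the fewest peaks of all 12 libraries.

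The tough minus tender difference in the density ratio changed sign between levels. It was 0.055 for high and -0.22 for low methylated DNA, 0.27 apart on the log2 scale. For medium methylated DNA it was 0.079, which is 0.30 from the low. Every tough library lay above every tender library at the high and medium level and below at the low level, and the differences between levels were not tested. With lists of equal length the differences were 0.070, -0.012 and 0.027.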

How the results depend on the processing

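Values are on the log2 scale, and 3 values in a row stand for high, medium and low, or for high minus medium, high minus low and medium minus low. Beside the values given in the report, the density ratio of window to farther in stayed above 0 at every level in each alternative tried, from 0.31 to 1.14. The pileup ratio and the differences between levels did not keep their direction or their side of the threshold in all of them, and the cause was not tested. Only the alternatives whose values moved by more than the spread between libraries, turned or crossed the threshold are given. With the window limited to 1 Mb, the ratios were 1.14, 0.81 and 1.05 for density, 0.13, 0.13 and 0.28 for width and 1.11, 0.56 and 1.29 for pileup. Tough minus tender was 0.10, 0.19 and -0.45 for density, -0.018 (low) for width and 0.10, 0.31 and -1.32 for pileup. With the window widened to 5 Mb, the ratios were 0.41, 0.44 and 0.47 for density, 0.033, 0.014 and 0.066 for width and -0.18, -0.029 and 0.15 for pileup. The levels differed by -0.037, -0.059 and -0.022 for density and -0.15 (high minus medium) for pileup. The tough minus tender difference became 0.055, 0.039 and -0.11 for density, -0.032 (low) for width and -0.094 (high) for pileup. With chr14:1-1000000 kept, the ratios were 0.93, 0.77 and 0.92 for density and 0.49 (high) for pileup. Between levels the differences were -0.0033 (high minus medium) for width. For beef, the difference was 0.055, 0.12 and -0.30 for density. With the last 3 Mb left out, the ratios were 0.98, 0.85 and 0.78 for density, 0.035 (high) for width and -0.67 (high) for pileup. Differences between levels came to 0.13, 0.20 and 0.069 for density, -0.0046, -0.095 and -0.090 for width and -0.81, -1.14 and -0.33 for pileup. Tough minus tender was 0.027 (high) for density. For peaks with -log10 q of 5 or more, the ratios were 0.12 (high) for pileup. The levels differed by -0.025 (high minus low) for density, -0.026 (high minus medium) for width and -0.0089 (high minus medium) for pileup. The tough minus tender difference became -0.019 (low) for width. For peaks with a fold enrichment of 3 or more, the ratios were 0.88 (high) for density and 0.028 (high) for width. Between levels the differences were -0.035 (high minus medium) for width. For beef, the difference was -0.12 (low) for width and 0.13 (medium) for pileup. With 9555 peaks per library, the ratios were 0.74, 0.82 and 0.93 for density, 0.00044 (medium) for width and -0.056, 0.43 and 1.37 for pileup. Differences between levels came to -0.085, -0.19 and -0.10 for density, 0.054, -0.046 and -0.10 for width and -0.48, -1.43 and -0.94 for pileup. Tough minus tender was 0.070, -0.012 and 0.027 for density and 0.39, -0.96 and 0.011 for pileup. Without chromosome 25, the ratios were 0.69, 0.56 and 0.71 for density and 0.49 (high) for pileup. The levels differed by -0.012 (high minus low) for density. The tough minus tender difference became 0.086 (high) for density. With bp under peaks per Mb and means in place of counts and medians, the ratios were 0.69 (medium) for density, 0.032 (high) for width and -0.22, -0.047 and 0.074 for pileup. Between levels the differences were -0.034 (high minus low) for density, -0.024 (high minus medium) for width and -0.17 (high minus medium) for pileup. For beef, the difference was 0.0084 (low) for width and 0.11 (low) for pileup. In the merged lists, the ratios were 0.73, 0.50 and 0.34 for density and 0.062 (low) for width. Differences between levels came to 0.23, 0.39 and 0.16 for density, -0.013, -0.012 and 0.0011 for width and -0.0086, -0.00036 and 0.0082 for pileup. Tough minus tender was -0.13 (low) for density, 0.058, 0.011 and -0.014 for width and -0.015 (low) for pileup. With the median over chromosomes, the ratios were 0.62, 0.39 and 0.54 for density. Without the first 0.5 Mb, the ratios were 0.43, 0.48 and 0.45 for density, 0.023, 0.0092 and 0.0063 for width and -0.37, 0 and 0.070 for pileup. The levels differed by -0.046, -0.018 and 0.027 for density, 0.014, 0.017 and 0.0029 for width and -0.37 (high minus medium) for pileup. The tough minus tender difference became 0.052, 0.018 and -0.045 for density, 0.017 (low) for width and -0.15 (high) for pileup. Without the 10 fullest steps of the window, and with none taken out farther in, the ratios were 0.31, 0.40 and 0.38 for density, 0.040, -0.0075 and 0.049 for width and -0.50, -0.058 and 0.025 for pileup. Between levels the differences were -0.090, -0.072 and 0.018 for density and -0.44 (high minus medium) for pileup. For beef, the difference was 0.052, 0.0075 and -0.062 for density and -0.16, 0 and -0.050 for pileup.

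The differences between levels that passed an adjusted p of 0.05 did so with 9555 peaks per library (adjusted exact permutation p of 0.0367 for all 3 in density, high minus medium and medium minus low in width, and high minus low and medium minus low in pileup) and with the last 3 Mb left out (0.0429 for high minus medium and high minus low in density, high minus low and medium minus low in width, and high minus medium and high minus low in pileup).

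Group-specific window regions, tender and tough, were 22 and 28 (high), 97 and 110 (medium) and 34 and 34 (low) with lists of equal length. With -log10 q of 5 or more they were 10 and 135 at the low level (0.529% and 7.14% of window regions, against 0.501% and 8.17% of all autosomal regions). Joining peaks up to 500 bp apart left 38 tough-specific regions at the medium level (1.72% against 1.56%). With single libraries left out these counts were 53 to 141 and 34 to 103 (high), 334 to 568 and 107 to 197 (medium), and 26 to 237 and 238 to 807 (low). They were larger because fewer libraries then had to meet the condition. At the largest counts the shares of window regions were 15.7% and 11.5% (high), 25.8% and 8.13% (medium), and 10.3% and 43.29% (low). Over all autosomal regions they were 15.8% and 11.3%, 28.6% and 7.64%, and 11.6% and 47.04%. The window was thus above for tough-specific regions at the high and medium level and below otherwise.

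With 1 library left out, high minus low in pileup ranged from -0.42 to 0.017, turning positive without LTE_1, and high minus medium in width from -0.0077 to 0.012. The low level pileup ratio ranged from 0.18, without LTE_1, to 0.61. Taking the levels of one animal as pairs (replicate block), high minus medium in density was 0.12 with an exact permutation p of 0.12, the smallest that 4 pairs allow. No difference between levels passed in the main comparison with or without the block, and the passing values above come from unpaired tests, which no blocked test of 4 pairs could match. With 2 animals per group no tough against tender test could reach 0.05. What depth did to the calling of weak peaks was not tested.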
